A study of Mus musculus with 69 samples.

Results

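The prosurvival arm of the BCL2 family was followed in sorted populations of mosaic mouse gastruloids through 4 genes, Bcl2, Bcl2l1, Bcl2l2 and Mcl1. They were taken by gene symbol from a count table of 55367 symbols, of which 42280 had at least 1 count, and all 4 were found, had counts in every one of the 69 libraries and passed the filter on low counts in every comparison. The proteins of these genes (BCL2, BCL-XL from Bcl2l1, BCL-W from Bcl2l2, and MCL1) sit on the outer mitochondrial membrane and hold the effectors BAX and BAK, and the BH3-only proteins that trigger them, in check. When the BH3-only proteins outweigh them, the effectors open the membrane, cytochrome c escapes and caspases are activated. MCL1 is a short-lived protein on which early embryos depend, BCL-XL is abundant in many cell types, and p53 drives transcription of several of the opposing genes, among them Bbc3 (PUMA), Pmaip1 (NOXA) and Bax. The values below are RNA levels, and protein was not measured in these data.

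Gastruloids are aggregates of mouse embryonic stem (mES) cells that go through events resembling gastrulation in culture. All cells derived from the mES line E14Tg2A and carried a fluorescent histone on a piggyBac transposon, as 1 clone each: WT–mCherry (EF1α-driven H2B–mCherry), WT–emiRFP (CAG-driven H2B–emiRFP670) and p53KO–emiRFP, a subclone of WT–emiRFP with a homozygous frameshift in Trp53 that had been selected with the MDM2 inhibitor Nutlin-3a. Mosaic gastruloids were seeded from 150 WT–mCherry and 150 WT–emiRFP cells (WT + WT) or from 150 WT–mCherry and 25 p53KO–emiRFP cells (WT + p53KO), grown in N2B27 medium with a pulse of the GSK3 inhibitor CHIR99021 between 48 and 72 h, and pools of gastruloids were dissociated and sorted by colour at 48, 72, 96, 120 and 144 h. The 3 clones as mES cells in serum with LIF gave the 0 h samples, so that there were 23 groups of 3 libraries. A p53KO difference rests on 1 subclone, and any difference between WT–mCherry and an emiRFP population is also a difference of clone and reporter.

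Libraries held between 26722541 and 72981570 counts. Trp53 checked the genotype labels, with 1506 to 2589 normalized counts in the 18 p53KO–emiRFP libraries and 13902 to 27511 in the 51 WT libraries. The histone genes H2bc14 and H2bc7 marked emiRFP cells, H2bc14 reading 4934 to 10517 in emiRFP populations and 6.20 to 8.21 in WT–mCherry mES cells. WT–mCherry cells sorted from WT + p53KO gastruloids held more of it at late times, with a mean of 355 at 120 h and 504 ± 400 (SD, n = 3) at 144 h, when those libraries stood at 2.46% to 17.5% of the p53KO–emiRFP level. WT–mCherry from WT + WT stood at 0.211% to 2.06% of the WT–emiRFP level at 144 h. Of the fixed marker lists (naive and primed pluripotency, primitive streak, paraxial mesoderm, neural, haematoendothelial, endoderm), no marker was at 0 in every library of a group. In bulk samples, fewer cells of a type and less RNA per cell cannot be told apart.

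The 4 genes lie on different chromosomes (GRCm38, Gencode). Bcl2 (ENSMUSG00000057329.7) runs over chr1:106538178-106714274 on the minus strand with 9157 bp of merged exons, Bcl2l1 (ENSMUSG00000007659.18) over chr2:152780668-152831728 on the minus strand with 4586 bp, Bcl2l2 (ENSMUSG00000089682.10) over chr14:54883377-54888234 on the plus strand with 4462 bp, and Mcl1 (ENSMUSG00000038612.16) over chr3:95658788-95663176 on the plus strand with 3418 bp. All are protein-coding, and the counts cover their exons, UTRs included. The antisense gene D630008O14Rik overlapped 558 bp of Bcl2 exon and had 4 counts over all libraries, and Gm20521 overlapped 594 bp of Bcl2l2 exon on the same strand and had 0 counts. The annotated span of Gm20521 runs on over Pabpn1, and a read in the shared exon cannot be assigned by position alone.

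Bcl2 and Mcl1 carried the main differences below, so the 300 bases around their RefSeq start sites, mostly upstream, are shown (GRCm38.p6, 5′ to 3′ on the gene's own strand), with GC boxes (GGGCGG or its reverse complement) in capitals. The windows are chr1:106714241-106714540 on the minus strand for Bcl2 and chr3:95658471-95658770 on the plus strand for Mcl1.
Bcl2: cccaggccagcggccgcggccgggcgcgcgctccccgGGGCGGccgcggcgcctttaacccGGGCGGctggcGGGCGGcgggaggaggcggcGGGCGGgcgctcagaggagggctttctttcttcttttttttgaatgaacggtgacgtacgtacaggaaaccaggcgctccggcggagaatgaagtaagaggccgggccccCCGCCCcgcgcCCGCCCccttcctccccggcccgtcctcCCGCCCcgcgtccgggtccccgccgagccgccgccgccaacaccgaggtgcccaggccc
Mcl1: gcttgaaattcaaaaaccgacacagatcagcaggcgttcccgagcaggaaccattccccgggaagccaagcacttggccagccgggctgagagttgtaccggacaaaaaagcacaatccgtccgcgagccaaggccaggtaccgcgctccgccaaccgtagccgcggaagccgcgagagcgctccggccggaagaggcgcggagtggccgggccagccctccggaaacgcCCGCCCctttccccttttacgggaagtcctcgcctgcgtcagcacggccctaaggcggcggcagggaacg
The Bcl2 window was 76% G and C with 7 GC boxes, and the Mcl1 window 65.67% with 1, against a median of 52.67% over 32851 promoter windows, of which 35.66% held a GC box. Across the 6 windows of the members (Bcl2l1 has 3 and Bcl2l2 has 1), Bcl2l2 held 1 GC box and Bcl2l1 none. None of the 6 had, on either strand, a consensus p53 half-site (present in 8.356% of all windows), a CCAAT box (37.41%), TATAAA (13.62%) or the E-box CACGTG (7.15%), which says only that these letters are not in these windows.

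Mcl1 was the most abundant of the 4 transcripts throughout. Scaled per kilobase (kb) of merged exon, the order was Mcl1, then Bcl2l1, Bcl2l2 and Bcl2 in 69 of 69 libraries. Neighbours in that order were far apart at the top, Mcl1 exceeding Bcl2l1 by 4.89-fold to 16.4-fold, and closest at the bottom late on, Bcl2l2 exceeding Bcl2 by as little as 1.67-fold in 1 library and as much as 54.9-fold in another. In WT–emiRFP mES cells Mcl1 made up 92.4% ± 0.791 (SD, n = 3) of the summed per-kb level of the 4 genes, and Bcl2 0.0359% ± 0.00585. The sum itself fell off from mES cells, where it was 9360 ± 289 normalized counts per kb in WT–emiRFP and 8165 ± 164 in p53KO–emiRFP, to 3358 ± 89.3 and 3251 ± 112 at 72 h. After 72 h the means parted. WT–emiRFP stood at 5447 ± 150 at 120 h and 6349 ± 671 at 144 h, and p53KO–emiRFP at 3170 ± 73.3 and 3643 ± 271, while the share of Mcl1 at 144 h was 88.7% ± 1.33 in WT–emiRFP and 81.0% ± 2.22 in p53KO–emiRFP, and that of Bcl2 0.373% ± 0.0941 and 2.50% ± 0.250. These sums and shares are descriptions, not tests.

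**Figure D1:**
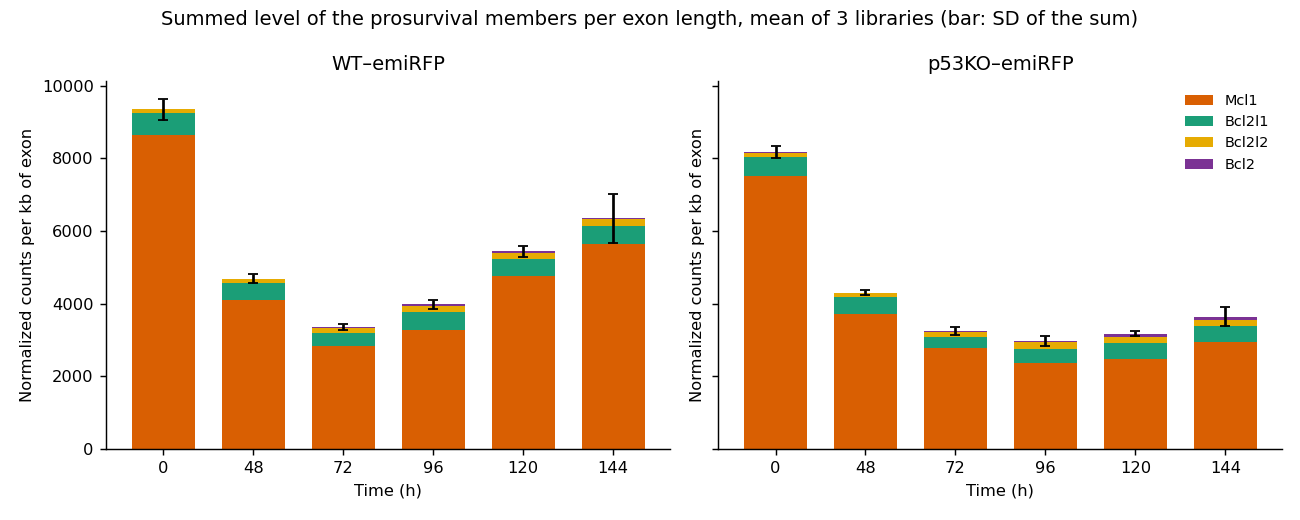
Summed level of Mcl1, Bcl2l1, Bcl2l2 and Bcl2 in normalized counts per kb of merged exon (y axis) at 0 to 144 h (x axis), stacked by gene, mean of 3 libraries, with the SD of the sum as the error bar. Mcl1 fills most of every bar, and at 144 h the sum is 6349 in WT–emiRFP and 3643 in p53KO–emiRFP.

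The members followed separate courses over time. Each time point was compared with the one before in a single edgeR quasi-likelihood fit of all libraries, with adjusted p from Benjamini-Hochberg over 21132 genes and a threshold of 0.05. The WT course is the mean of WT–emiRFP and both WT–mCherry populations (of the 2 WT clones at 0 h). In WT cells 4 of 4 members passed at the steps to 48, 72 and 96 h, where 70.3%, 66.9% and 58.6% of all genes did, 1 at the step to 120 h (56.8%) and 2 at the step to 144 h (55.4%). In p53KO–emiRFP the numbers were 4, 4, 4, 2 and 1, against 59.5%, 46.4%, 44.5%, 34.9% and 22.7%. Large shares of all genes passed in these steps, so the course and size of each member's change, rather than its passing, is what the values below describe.

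**Figure D2:**
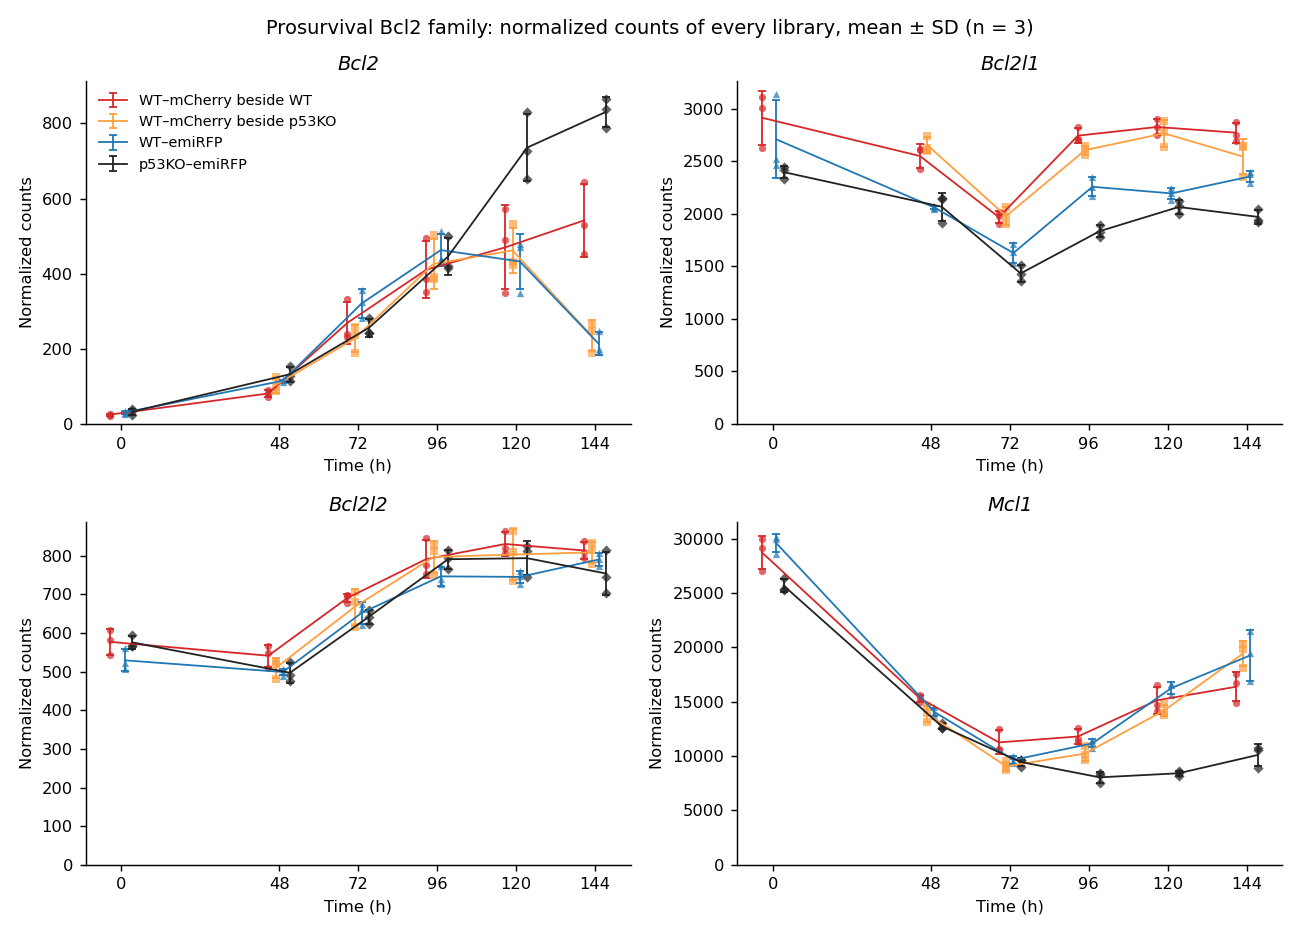
Normalized counts (y axis, from 0) of the 4 members against time in hours (x axis), 1 point per library and a line through the mean ± SD (n = 3) of each sorted population. Bcl2 climbs from 25.3 in WT–mCherry mES cells to 830 in p53KO–emiRFP at 144 h, and the Mcl1 line of p53KO–emiRFP runs below the WT lines at 96, 120 and 144 h.

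Bcl2, the founding member of the family, was close to the bottom of detection in mES cells. Its normalized counts were 25.1, 28.2 and 22.7 in the 3 WT–mCherry mES libraries, 26.1, 30.3 and 35.9 in WT–emiRFP and 23.9, 39.6 and 35.2 in p53KO–emiRFP, from as few as 11 reads in a library. The mES populations overlapped. In WT cells Bcl2 then rose by 1.81 ± 0.16 (log2, SE, adjusted p = 5.30e-15) to 48 h, by 1.45 ± 0.11 (adjusted p = 3.08e-18) to 72 h and by 0.68 ± 0.09 (adjusted p = 6.71e-09) to 96 h. The step to 120 h was 0.07 ± 0.09 (adjusted p = 0.528), and that to 144 h was −0.60 ± 0.09 (adjusted p = 1.74e-07) for the mean of the 3 WT populations, which did not move alike. Mean normalized counts of Bcl2 went from 433 to 213 in WT–emiRFP and from 462 to 235 in WT–mCherry beside p53KO cells, but from 470 to 542 in WT–mCherry beside WT cells. In p53KO–emiRFP it rose at each of the first 4 steps, by 2.00 ± 0.23, 0.95 ± 0.18, 0.80 ± 0.16 and 0.72 ± 0.16, and the step to 144 h was 0.18 ± 0.15 (adjusted p = 0.468). From 0 to 144 h the fold was 10.7 for the mean of the WT populations and 25.2 in p53KO–emiRFP. By their own group means the WT populations ranged from 6.93-fold in WT–emiRFP and 9.28-fold in WT–mCherry beside p53KO cells to 21.4-fold in WT–mCherry beside WT cells, the last being near p53KO–emiRFP. Both folds cover a span in which 74.6% and 73.8% of all genes passed and so did 4 of 4 members in both. Without replicate 1 it was 3 of 4 in WT, Bcl2l1 going from −0.14 (adjusted p = 0.00128) to −0.0651 (adjusted p = 0.196).

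Mcl1 took the opposite first turn. Its normalized counts were 29150, 27020 and 29997 in WT–mCherry mES cells, 29946, 28592 and 30135 in WT–emiRFP and 25241, 25402 and 26364 in p53KO–emiRFP. All 3 p53KO–emiRFP libraries were below the 6 WT libraries. By 48 h Mcl1 had fallen by 1.02 on the log2 scale in WT (SE 0.04, adjusted p = 2.65e-28) and by 1.01 in p53KO–emiRFP (SE 0.07, adjusted p = 7.38e-19), close to 2-fold in both. It fell again to 72 h, by 0.54 (SE 0.04) in WT and 0.43 (SE 0.07) in p53KO–emiRFP. From there WT cells gained Mcl1 at every step, by 0.15 ± 0.04 (adjusted p = 0.00091) to 96 h, 0.46 ± 0.04 (adjusted p = 6.72e-15) to 120 h and 0.27 ± 0.04 (adjusted p = 5.85e-08) to 144 h. In p53KO–emiRFP it fell once more to 96 h, by 0.23 on the log2 scale (SE 0.07, adjusted p = 0.00461), was 0.07 ± 0.07 higher at 120 h (adjusted p = 0.513), and rose by 0.26 ± 0.07 (adjusted p = 0.00328) to 144 h. Without replicate 2, the p53KO–emiRFP steps to 96 h and to 144 h missed the threshold (adjusted p = 0.0802 and 0.126).

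Bcl2l1 and Bcl2l2 moved less, spanning 2.03-fold and 1.67-fold between their lowest and highest group means, against 32.8-fold for Bcl2 and 3.68-fold for Mcl1. Bcl2l1, which encodes BCL-XL, fell in WT by 0.22 (SE 0.04) to 48 h and by 0.38 (SE 0.04) to 72 h, and rose by 0.45 ± 0.04 to 96 h (adjusted p = 1.42e-16). After 96 h its WT steps were 0.03 and −0.02 (adjusted p = 0.501 and 0.736). The p53KO–emiRFP course had the same turns, −0.21, −0.53 and 0.36, and a rise of 0.17 ± 0.06 to 120 h (adjusted p = 0.0257) that was lost in 5 of 8 alternative analyses. Bcl2l2, which encodes BCL-W, ran between 475 and 608 normalized counts in the libraries of 0 and 48 h and between 703 and 865 in those of 96 to 144 h, without overlap. It rose by 0.38 ± 0.04 to 72 h and 0.22 ± 0.04 to 96 h in WT, and by 0.37 ± 0.07 and 0.30 ± 0.06 in p53KO–emiRFP. Its small decrease to 48 h (−0.10 in WT, adjusted p = 0.038, and −0.21 in p53KO–emiRFP, adjusted p = 0.00478) was lost in 6 and 3 of 8 alternatives.

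**Figure D3:**
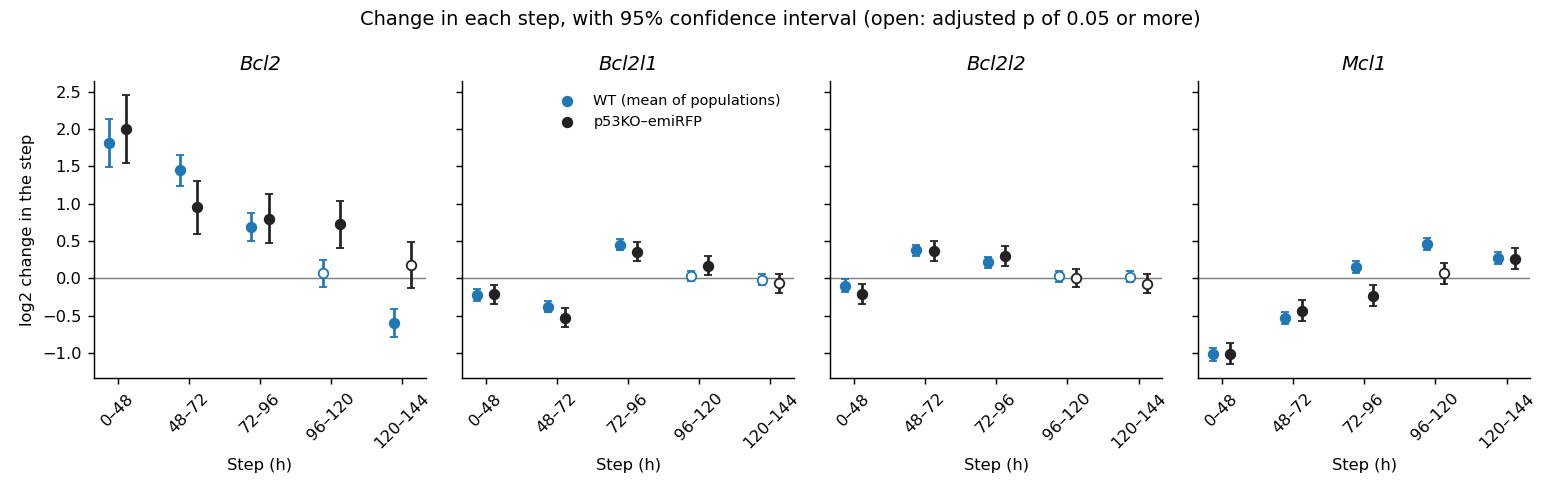
Change of each member in each step between neighbouring time points (y axis, log2 with its 95% confidence interval, x axis the step in hours), for the mean of the WT populations and for p53KO–emiRFP, with open points where adjusted p was 0.05 or more. Both courses turn together until 72 h, and Mcl1 in the step to 96 h lies at 0.15 in WT and −0.23 in p53KO–emiRFP.

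Whether a step differed between the genotypes was tested directly, as the step of p53KO–emiRFP minus that of WT–emiRFP in the same fit. Of the 20 values for the members, 4 passed. The Mcl1 step to 96 h was lower in p53KO–emiRFP by 0.44 (−0.44 ± 0.10, adjusted p = 0.00125), where 11.0% of genes passed, and the step to 120 h by 0.48 (−0.48 ± 0.10, adjusted p = 0.000104), where 30.8% did. The Bcl2 step to 120 h was higher by 0.82 ± 0.22 (adjusted p = 0.0028) and that to 144 h by 1.20 ± 0.22 (adjusted p = 5.41e-05), where 16.9% of genes passed. The reference here is WT–emiRFP alone, and in the step to 144 h the Bcl2 mean of WT–mCherry beside WT cells moved by 0.21 on the log2 scale, close to the 0.18 of p53KO–emiRFP. No member passed at the steps to 48 and 72 h, where 5.98% and 1.76% of genes did. Without replicate 2 the Mcl1 value to 96 h had an adjusted p of 0.0548. Over the whole course from 0 to 144 h, Bcl2 gained 1.86 ± 0.32 more (adjusted p = 1.84e-06) and Mcl1 ended 0.73 lower (−0.73 ± 0.10, adjusted p = 8.39e-09), with 50.1% of genes past the threshold. Bcl2l1 (−0.08, 95% interval −0.25 to 0.09) and Bcl2l2 (−0.19, −0.37 to −0.01, adjusted p = 0.0811) did not pass. In this comparison Bcl2l2 passed without replicate 1 (−0.28, adjusted p = 0.0243).

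Within each time point, p53KO–emiRFP was compared with its parent WT–emiRFP, as mES cells at 0 h and later sorted from gastruloids that also held WT–mCherry cells. The members passed the test in 9 of 24 cases, 2 higher and 7 lower. None passed at 0 h, where 6.13% of genes did, although in a single fit of all 69 libraries Mcl1 (−0.20, adjusted p = 0.0377) and Bcl2l1 (−0.18, adjusted p = 0.0432) were past the threshold there. Mcl1 alone passed at 48 h (22.0% of genes) and Bcl2l1 alone at 72 h (29.1%), followed by Bcl2l1 with Mcl1 at 96 h (23.3%), Bcl2 with Mcl1 at 120 h (51.0%), and these 3 genes at 144 h (65.3%). At 120 and 144 h most genes differed, so that passing there did not set the members apart, and the sizes are given instead.

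Mcl1 was lower in p53KO–emiRFP from 96 h on. At 96 h its normalized counts were 11264, 10751 and 11477 in WT–emiRFP and 8237, 7485 and 8403 in p53KO–emiRFP, at 120 h 15619, 16544 and 16591 against 8197, 8416 and 8632, and at 144 h 16862, 19438 and 21487 against 8932, 10581 and 10777. The groups did not overlap at any of these times. The log2 difference was −0.47 ± 0.06 (SE, adjusted p = 4.71e-05), −0.95 ± 0.06 (adjusted p = 2.14e-08) and −0.93 ± 0.10 (adjusted p = 1.06e-06), that is 1.39-fold, 1.93-fold and 1.91-fold lower. Earlier, Mcl1 was −0.20 (adjusted p = 0.153) at 0 h and −0.03 (adjusted p = 0.785) at 72 h, and its value at 48 h, −0.14 ± 0.05 (adjusted p = 0.0392), was lost in 6 of 9 alternatives.

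Bcl2 was higher in p53KO–emiRFP at 120 and 144 h. Normalized counts at 120 h were 471, 349 and 478 in WT–emiRFP and 726, 651 and 829 in p53KO–emiRFP, and at 144 h they were 248, 200 and 192 against 838, 866 and 788. Again the groups were apart at both times. The differences were 0.76 ± 0.17 (adjusted p = 0.00183, 1.70-fold) and 1.96 ± 0.15 (adjusted p = 7.67e-08, 3.89-fold). From 0 to 96 h the libraries of both populations overlapped, the largest difference being −0.33 ± 0.15 at 72 h (adjusted p = 0.121), which passed with the replicate number as a block (−0.33, adjusted p = 0.0198).

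Bcl2l1 was slightly lower in p53KO–emiRFP. At 96 h its normalized counts were 2170, 2251 and 2347 in WT–emiRFP and 1780, 1896 and 1826 in p53KO–emiRFP, a difference of −0.30 ± 0.05 (adjusted p = 0.000317), and at 144 h 2374, 2394 and 2294 against 2045, 1923 and 1943, a difference of −0.26 ± 0.06 (adjusted p = 0.0014). Neither pair of groups overlapped. The value at 72 h, −0.18 ± 0.06 (adjusted p = 0.0411), was lost in 5 of 9 alternatives, and those at 0, 48 and 120 h were −0.18, 0.00 and −0.09 (adjusted p from 0.199 to 0.964). Bcl2l2 differed by −0.07 to 0.12 over the 6 time points and never passed. Its 95% interval at 144 h, −0.22 to 0.09, left no room for a difference of the size seen in Mcl1 or Bcl2.

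**Figure D4:**
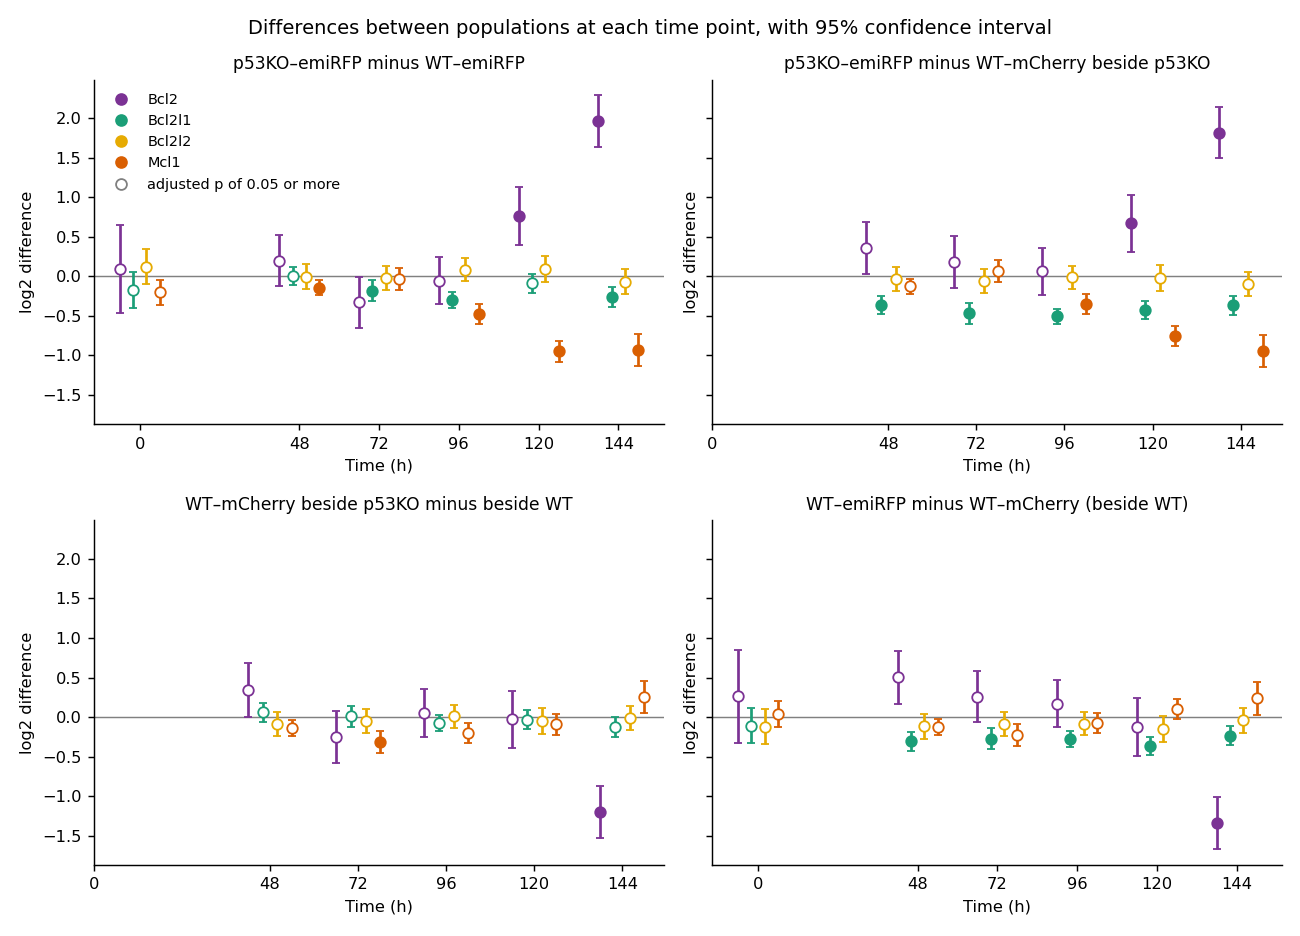
The log2 difference of each member (y axis, with its 95% confidence interval) against time in hours (x axis) in the comparisons between sorted populations, filled where adjusted p was under 0.05 and open where it was not. Mcl1 lies between −0.93 and −0.95 at 120 and 144 h in the genotype comparison, and Bcl2 at 144 h is 1.96 there and −1.20 in the WT–mCherry comparison by neighbour.

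Markers of cell state moved with these late differences. The fixed list called naive here held 6 pluripotency markers (Pou5f1, Nanog, Klf4, Esrrb, Zfp42, Tfcp2l1). Their summed normalized counts were 61935 to 71093 in WT–emiRFP and 11944 to 12699 in p53KO–emiRFP at 120 h. At 144 h they were 82415 to 94266 against 13235 to 19939, with 6 of 6 markers lower at both times. At 96 h they were 32809 to 36780 against 20117 to 23130, with 5 of 6 lower. In WT–emiRFP the mean of this sum was 39067 at 48 h and 87460 at 144 h. The study places the exit from naive pluripotency before 48 h, so the sum does not mark a naive state alone. Paraxial mesoderm markers (Tbx6, Msgn1, Meox1) were 2011 to 2926 against 13970 to 19672 at 144 h, 3 of 3 higher, while at 120 h they were 7516 to 10360 against 15650 to 20083, 2 of 3 higher, and at 96 h 16261 to 19020 against 8808 to 12078, 3 of 3 lower. Neural markers (Sox1, Pax6, Sox3) were 1999 to 2592 against 4985 to 6701 at 144 h, 3 of 3 higher. At 96 h the primed markers (Fgf5, Otx2, Dnmt3b, Pou3f1) were 12645 to 14577 in WT–emiRFP against 17579 to 20224, 1 of 4 higher, and primitive streak markers (T, Mixl1, Eomes) 23369 to 29136 against 42038 to 49451, 2 of 3 higher and 1 lower. The latter summed to 2394 to 2750 in WT–emiRFP and 10692 to 12607 in p53KO–emiRFP at 120 h, 2 of 3 higher and 1 lower, and to 911 to 961 against 2728 to 2844 at 144 h. Haematoendothelial markers (Kdr, Cdh5, Pecam1, Tal1) summed to 5065 to 5252 against 719 to 1010 at 120 h, 3 of 4 lower, and to 6965 to 7042 against 1543 to 2010 at 144 h, 2 of 4 lower. Pecam1, which mES cells also express, is on that list, and the sum was already 3633 to 5411 in mES cells, so it does not mark that cell type alone. At 96 h the haematoendothelial sum was 1238 to 1639 in WT–emiRFP against 863 to 927 in p53KO–emiRFP. The neural sum was 880 to 1122 against 1251 to 1384 at 96 h, and 1794 to 1974 against 2138 to 2631 at 120 h. The endoderm sum (Sox17, Foxa2) was 115 to 212 against 281 to 400 at 96 h and overlapped at 120 and 144 h. The primed sum overlapped at 120 h and was 9356 to 11616 against 6407 to 7489 at 144 h. The part of any of these in the Mcl1 and Bcl2 differences was not tested. At 0 h the naive sum was 208747 to 219182 in the WT clones and 179347 to 186532 in p53KO–emiRFP.

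The comparison the mosaic design was built for sets WT–mCherry cells beside p53KO cells, the losers of the competition, against WT–mCherry cells beside WT cells. Members passed in 2 of 20 cases, both lower, in tests that left out the replicate number. Values with it as a block follow below. No member passed at 48, 96 and 120 h, where 0.0735%, 3.93% and 5.95% of genes did, Mcl1 passed at 72 h (0.559%) and Bcl2 at 144 h (25.5%). At an unadjusted p under 0.05 the members numbered 2, 1, 1, 0 and 3 of 4 from 48 to 144 h, beside 6.04%, 9.85%, 19.8%, 20.4% and 37.9% of all genes.

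Mcl1 at 72 h read 10579, 10663 and 12517 normalized counts beside WT cells and 8700, 8925 and 9529 beside p53KO cells, without overlap. The difference was −0.31 ± 0.07 (SE, adjusted p = 0.0493), just inside the threshold, and over 9 alternatives it lay between −0.34 and −0.27 with adjusted p from 0.000366 to 0.581, missing the threshold in 5 of them, including each analysis that left out a replicate. Mcl1 was also lower in each of the 3 same-numbered pairs at 48 h (−0.14, adjusted p = 0.643) and 96 h (−0.20, adjusted p = 0.0691), and higher in all 3 at 144 h (0.25, adjusted p = 0.0696). With the replicate number as a block, these 3 values passed (adjusted p = 0.0022, 0.0013 and 0.000503). Without the block, the value at 96 h also passed with no filter, with DESeq2 and without replicate 3 (adjusted p = 0.00592, 0.0273 and 0.047). That at 144 h also passed with all 69 libraries in one fit, with no filter and with DESeq2 (adjusted p = 0.00522, 0.00145 and 0.0488). At 48, 72, 96 and 144 h the deviations of same-numbered samples from their group means correlated at over 0.1 in every pair. At 120 h r was 0.0705 for replicate 1, and 0.625 and 0.576 for replicates 2 and 3. WT–emiRFP cells of the WT + WT gastruloids stood nearer to the cells beside p53KO than to those beside WT at some of these times. Their Mcl1 means were 14051 at 48 h, 9646 at 72 h and 19262 at 144 h, where WT–mCherry cells had 13899, 9051 and 19433 beside p53KO and 15310, 11253 and 16368 beside WT, and at 48 and 72 h WT–mCherry beside WT was the WT population whose libraries overlapped no other. At 96 h WT–emiRFP, at 10751 to 11477, overlapped both. Some marker sums of WT–mCherry cells did not overlap either. Beside WT and beside p53KO cells in turn, the haematoendothelial sum was 2168 to 2272 and 1811 to 2053 at 72 h. At 48 h it was 2088 to 2316 and 1775 to 1982, the primed 200058 to 209831 and 216126 to 223805, and the neural 2169 to 2335 and 2375 to 2729. The primitive streak sum at 96 h was 27697 to 31797 and 34294 to 38203. The other lists overlapped at these 3 times, and the part of markers in the Mcl1 values was not tested. At 144 h the libraries beside p53KO carried the H2bc14 signal given above, whose part in the Mcl1 value was not tested.

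Bcl2 at 144 h was 529, 452 and 645 normalized counts in WT–mCherry beside WT cells, and 267, 189 and 249 beside p53KO cells. The groups did not overlap, and the difference was −1.20 ± 0.15 (adjusted p = 0.000195), or 2.30-fold lower, between −1.32 and −1.10 over 9 alternatives. From 48 to 120 h the Bcl2 values of both overlapped, with differences from −0.25 to 0.34 (adjusted p from 0.674 to 0.949). The WT–emiRFP cells of the WT + WT gastruloids, at 248, 200 and 192, lay in the same range as WT–mCherry beside p53KO cells, so that at 144 h WT–mCherry beside WT cells was the WT population standing apart. Both comparisons share those 3 libraries. Of the 7 marker lists at 144 h, the neural sum ran in the order of Bcl2 (3908 to 4445 in WT–mCherry beside WT, 2590 to 3448 beside p53KO and 1999 to 2592 in WT–emiRFP), and so did the means of the paraxial mesoderm sum (5454, 4452 and 2393). The means of the other lists in the same 3 populations ran otherwise, the naive sum at 62004, 66799 and 87460, the haematoendothelial at 5258, 5428 and 7013, the primitive streak at 705, 954 and 928, the primed at 9071, 6935 and 10307 and the endoderm at 345, 734 and 286. The part of these markers in the Bcl2 difference was not tested. Nor was that of p53KO–emiRFP RNA in the WT–mCherry libraries, of which replicate 1 beside p53KO held the most H2bc14 at 144 h and also the most Bcl2 of its group. Without replicate 1 the Bcl2 difference was −1.32 (adjusted p = 0.00702).

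Bcl2l1 and Bcl2l2 did not pass in this comparison at any time. Bcl2l1 in loser cells differed by −0.12 at 144 h (95% interval −0.25 to 0.00, adjusted p = 0.129) and by −0.07 to 0.06 before. Bcl2l2 differed by −0.09 to 0.01, with 95% intervals inside −0.24 to 0.15.

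The WT clones differed from each other in Bcl2l1. WT–emiRFP minus WT–mCherry, as separate mES cultures at 0 h and from the same WT + WT gastruloids afterwards, passed in 6 of 24 cases, all lower, against 11.1%, 8.89%, 7.64%, 2.15%, 1.24% and 23.8% of genes from 0 to 144 h. In 5 of them the gene was Bcl2l1, at −0.31, −0.27, −0.28, −0.37 and −0.24 from 48 to 144 h (adjusted p from 0.00242 to 0.0154), with WT–mCherry at 1905 to 2902 normalized counts and WT–emiRFP at 1531 to 2394 and no overlap within a time point. At 0 h the clones overlapped (−0.11, adjusted p = 0.549). The Bcl2l1 calls were lost at each time in 2 or 3 of 9 alternatives, without replicate 1 at all 5 times, without replicate 2 at 48, 72, 96 and 144 h and without replicate 3 at 120 h. The sixth was Bcl2 at 144 h (−1.34 ± 0.15, adjusted p = 9.26e-05, 2.53-fold lower), described above. With the replicate number as a block, Bcl2 at 48 h passed (0.50, adjusted p = 0.012, against 0.064 without), and so did Mcl1 at 48 h (−0.12, adjusted p = 0.000789, against 0.115) and 144 h (0.23, adjusted p = 0.000871, against 0.0888).

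Winners and losers of the same gastruloids, p53KO–emiRFP minus WT–mCherry, differed in 10 of 20 cases, 2 higher and 8 lower, against 25.3%, 31.4%, 23.6%, 39.5% and 64.2% of genes from 48 to 144 h. Bcl2l1 was lower in p53KO–emiRFP at all 5 times, by −0.36, −0.47, −0.51, −0.42 and −0.37 (adjusted p from 2.25e-06 to 0.00015), held in all 9 alternatives. Bcl2l1 was also lower in the parent WT–emiRFP clone, and the other comparisons, which share libraries with this one, stand beside it. For 48, 72, 96, 120 and 144 h in turn, Bcl2l1 was −0.31, −0.27, −0.28, −0.37 and −0.24 between the WT clones. By genotype it was 0.00, −0.18, −0.30, −0.09 and −0.26. Mcl1 was lower at 96, 120 and 144 h (−0.35, −0.75 and −0.94, adjusted p = 0.000637, 4.15e-07 and 1.23e-06), when the clones themselves differed by −0.08 to 0.23. Bcl2 was higher at 120 h (0.67 ± 0.17, adjusted p = 0.00606) and 144 h (1.82 ± 0.15, adjusted p = 2.02e-07). The Bcl2 value at 120 h had an adjusted p of 0.121 without replicate 1. With the replicate number as a block, Bcl2 (0.36, adjusted p = 0.0384, against 0.0991) and Mcl1 (−0.12, adjusted p = 0.000379, against 0.0589) passed at 48 h too.

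The genes the prosurvival proteins act on were read from fixed lists. Among 8 BH3-only genes, p53KO–emiRFP against WT–emiRFP gave, from 0 to 144 h, 0, 1, 2, 3, 2 and 2 that were higher and 1, 2, 2, 1, 2 and 3 that were lower. Of all genes, 1.98%, 10.3%, 13.4%, 9.45%, 27.3% and 33.1% were higher and 4.15%, 11.7%, 15.7%, 13.8%, 23.7% and 32.1% lower, so that the list's counts at 120 and 144 h were near that background. The list medians were −0.09 to 0.16, and those of all genes −0.01 to 0.05. Bbc3, which encodes PUMA, was lower at every time, by −2.22 ± 0.24 at 0 h, −2.52 ± 0.13 at 72 h and −0.78 ± 0.12 at 144 h (adjusted p = 9.40e-05, 1.16e-09 and 4.54e-05), its mean going from 445 normalized counts to 903 in p53KO–emiRFP and from 2074 to 1549 in WT–emiRFP. Pmaip1, which encodes NOXA, a BH3-only protein that binds MCL1, was higher from 48 h on, by 1.02 ± 0.07 at 72 h, 1.35 ± 0.09 at 96 h (adjusted p = 5.35e-08) and 0.78 ± 0.10 at 144 h. At 96 h its mean was 4381 ± 290 normalized counts in p53KO–emiRFP and 1718 ± 100 in WT–emiRFP. Bmf, another BH3-only gene, was 1.12 ± 0.08 higher at 144 h (adjusted p = 2.31e-08).

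Of the 3 effector genes, Bax was lower in p53KO–emiRFP at all 6 times, by −0.89 ± 0.12 at 0 h to −1.31 ± 0.08 at 144 h (adjusted p = 0.000822 and 1.20e-08), and Bok was higher from 72 h on, reaching 0.98 ± 0.13 (adjusted p = 1.15e-05). Bak1 was higher at 96 h (0.37 ± 0.10, adjusted p = 0.0169). Of the genes that set the life of the MCL1 protein (6 of the 7 listed symbols were in the table, and 5 or 6 were tested at a time), none was higher, while 1 was lower at 0, 48 and 72 h and 3 were lower at 96, 120 and 144 h, where 13.8%, 23.7% and 32.1% of all genes were lower. The early one was Marchf5, an E3 ligase of the mitochondrial membrane, at −0.46 to −0.61 from 0 to 72 h and −0.52 at 96 h. Usp9x, the deubiquitinase that spares MCL1, was lower by −0.29, −0.74 and −0.78 at 96, 120 and 144 h (adjusted p = 0.00116, 0.000164 and 0.000196). Fbxw7, a ligase subunit that marks MCL1 for destruction, was lower at the same times by −0.27, −0.22 and −0.34. Genes of opposite roles on this list differed in the same direction.

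In loser cells, the BH3-only list gave 2 higher at 96 h, 2 higher at 120 h, and 1 higher and 1 lower at 144 h, with none at 48 and 72 h. Of all genes 2.87% were higher at 96 h and 3.43% at 120 h, and 10.1% were higher and 15.4% lower at 144 h. Bbc3 was higher beside p53KO cells by 0.37 ± 0.09 at 96 h, 0.55 ± 0.11 at 120 h and 0.75 ± 0.11 at 144 h (adjusted p = 0.0315, 0.0107 and 0.000602), its mean at 144 h being 2404 ± 463 against 1427 ± 83.1 normalized counts. Hrk was higher by 0.95 ± 0.14 at 96 h and 0.75 ± 0.13 at 120 h, and Bcl2l11, which encodes BIM, was lower at 144 h (−0.41 ± 0.07, adjusted p = 0.0013). No effector and no gene of the MCL1 turnover list passed at any of the 5 times in this comparison.

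Over time in WT cells, the BH3-only list gave 6 higher and 1 lower at 48 h, with a median of 0.39 against −0.03 for all genes, and 1 higher and 6 lower at 72 h, with a median of −0.40 against −0.02. Of all genes 33.1% were higher and 37.2% lower in the first of these steps, and 32.8% and 34.1% in the next. Pmaip1 led the first step with 2.91, the same step in which Mcl1 fell by 1.02, and fell by 0.65, 1.20, 0.90 and 0.29 at the steps that followed. The other prosurvival genes of the family were nearly silent. Bcl2a1a, Bcl2a1b and Bcl2a1d did not reach the filter on low counts in any comparison, and within time points Bcl2l10 passed it only at 0 and 144 h, where it was lower in p53KO–emiRFP at 144 h (−2.92 ± 0.59, adjusted p = 0.000564) on few counts.

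**Figure D5:**
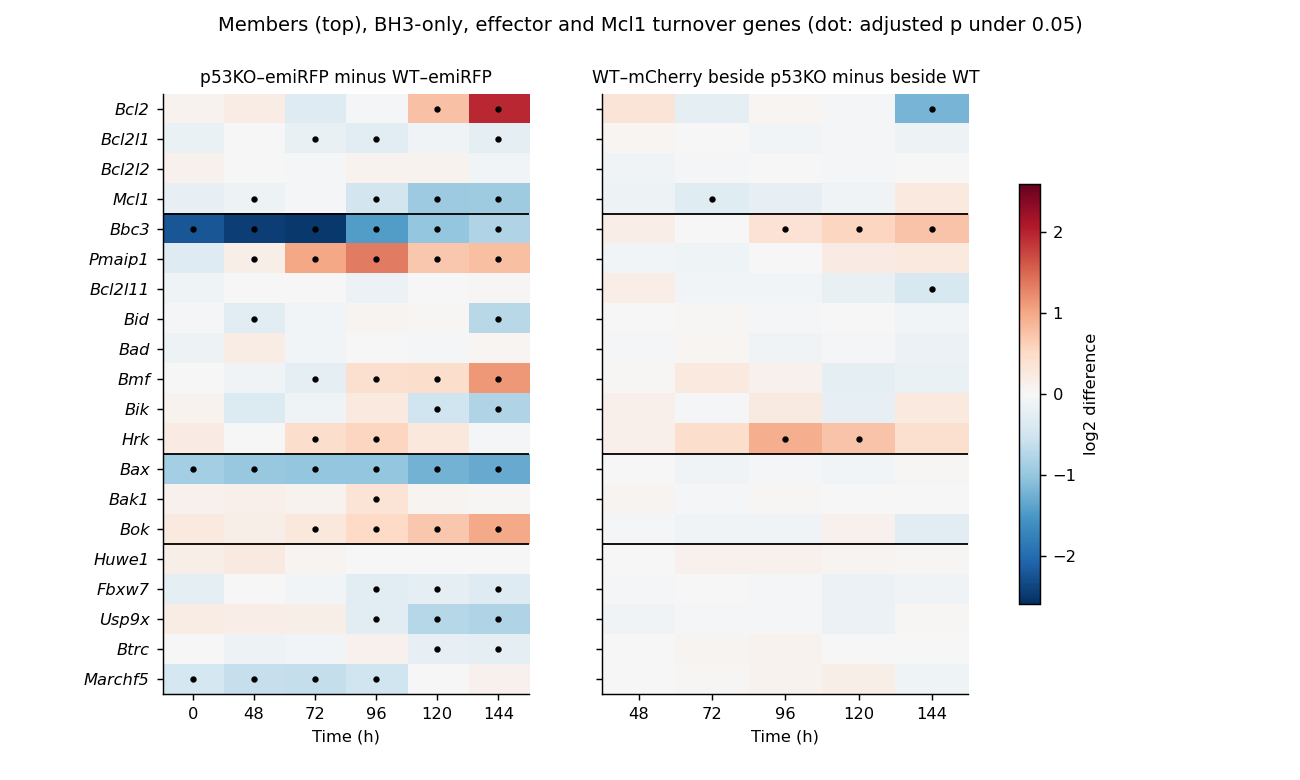
The log2 difference (colour) of the 4 members and of the BH3-only, effector and MCL1 turnover genes (rows) by time in hours (columns) for the comparisons between populations, with a dot where adjusted p was under 0.05. Bbc3 and Bax are lower in p53KO–emiRFP at every time, and Pmaip1 is higher from 48 h on. Few dots stand in the comparison of WT–mCherry cells beside p53KO and beside WT cells at any time.

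Across the 23 group means of log2 CPM, the members did not share a pattern. Pearson's r was −0.735 between Bcl2 and Mcl1, 0.785 between Bcl2 and Bcl2l2, 0.633 between Bcl2l1 and Mcl1 and 0.0774 between Bcl2l1 and Bcl2l2. These are descriptions over groups that share clones, times and experiments. Among 12132 genes the closest to Bcl2 were Mmp16 (0.990), C530008M17Rik (0.989) and Fbxl7 (0.988), then Arhgef40 and Usp25. Closest to Mcl1 were Hsd17b14 (0.984), Mybl2 (0.983) and Morc1 (0.981), then Mtf2 and Gm3333, and to Bcl2l2 Tshz1 (0.970), Gng12 (0.970) and Ptprm (0.967), then Meis2 and Sgce. Bcl2l1 had looser matches, Ankle1 at 0.922 and then H19 at 0.841, H2ax at 0.824, Pdcl and Arhgap30.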

How the data were processed

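Bulk poly A RNA was sequenced from 69 libraries, 3 replicates of each of 23 groups mapped from the sample labels. The authors trimmed reads with Trim Galore 0.6.7, aligned them to the mouse genome (GRCm38.p6) with STAR 2.7.11b and deposited raw counts of uniquely mapped reads per gene symbol. The strand setting of the counting is not given in the sources used here, and 0 columns were left out. Multi-mapping reads are absent, which can lower genes with close copies.

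Counts were divided by median-of-ratios size factors over all libraries (0.484 to 1.30) to give normalized counts. Between replicates at most 1.35% of 14106 genes had equal counts, so no library was counted as a duplicate. Tests used edgeR 4.0.16 (R 4.3.3): quasi-likelihood fits of the libraries of each time point, or of all 69 for steps in time, after filterByExpr, with Benjamini-Hochberg adjustment over all tested genes and a threshold of 0.05. Leaving 1 replicate number out, TMM scaling, no filter, a replicate block, other sets of libraries in the fit and DESeq2 1.42.0 were the alternatives. On counts simulated for p53KO–emiRFP against WT–emiRFP at 120 h, with 200 of 18510 genes changed 2-fold, 98% were recovered and 4.39% of calls were false. With none changed 0 genes were called. The simulated libraries were independent, without shared replicate effects. In the data 51.0% of genes passed in this comparison, and the rates were not tested for so broad a change. Gene lengths and positions came from Gencode on GRCm38, and promoter windows from RefSeq.

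The study states that replicates came from separate experiments, while the labels do not say that a replicate number marks one. Deviations from group means were therefore correlated between same-numbered samples of compared groups. All 3 pairs passed 0.1 at every time for the genotype comparison (18 of 18 pairs) and for winners and losers (15 of 15), at 4 of 5 times beside p53KO against beside WT (not 120 h) and at 4 of 6 between WT clones (not 0 and 72 h), and there the numbers were taken as pairing. The times left out each missed the cut by single pairs. Mean r of same-numbered samples at 120 h was 0.424 beside p53KO against beside WT, and −0.215 for differently numbered ones. Between WT clones these means were 0.192 and −0.0979 at 0 h, and 0.194 and −0.0963 at 72 h. The main tests left the pairing out, and the replicate number entered only as the block among the alternatives. The p-values measure the spread between these samples.

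The 4 members and the gene lists were chosen with earlier results of these data known. Named genes are the members, Trp53 and the histone genes H2bc14 and H2bc7 as checks, up to 2 rises and 2 falls of a list per comparison, the 5 genes of highest Pearson r to each member among genes with a mean of at least 1 log2 CPM, and genes overlapping a member. Bmf, Bak1, Bok and Fbxw7 values beyond that rule were chosen after they were seen.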

Additional observations from a re-analysis of the deposited data

Results flagged for a closer look

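The change over time differed between p53KO–emiRFP and WT–emiRFP for Bcl2 and Mcl1, by the test of the difference itself in the edgeR quasi-likelihood fit of all libraries. For Bcl2 the step to 120 h was 0.82 higher on the log2 scale in p53KO–emiRFP (adjusted p = 0.0028), the step to 144 h 1.20 higher (adjusted p = 5.41e-05) and the change from 0 to 144 h 1.86 higher (adjusted p = 1.84e-06). For Mcl1 the difference was −0.44 at the step to 96 h (adjusted p = 0.00125), −0.48 at the step to 120 h (adjusted p = 0.000104) and −0.73 from 0 to 144 h (adjusted p = 8.39e-09). In the step to 144 h Bcl2 in WT–mCherry beside WT cells, which is not part of this test, moved by 0.21. The 3 p53KO–emiRFP replicates and the 3 of WT–emiRFP did not overlap at 144 h for either gene. Groups of 3 are too small for a test of single outlying samples.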

How the results depend on the processing

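Of 61 tests of a member within time points or between steps that passed, 46 passed under every alternative. Of their 515 alternative values 470 passed, 45 missed the threshold and 0 changed sign. The tests of the change from 0 to 144 h are not among these. For those that passed, 69 alternative values passed and 1 missed the threshold. For the comparisons counted in the report, the number of members past the threshold in WT–mCherry beside p53KO against beside WT was 2, and 4 with DESeq2, 1 with TMM, 4 with no filter, 1 with only the groups compared, 5 with the replicate block and 1 to 2 without a replicate. Between WT clones it was 6, 10 with the replicate block and 2 to 5 without a replicate. The block also raised the calls over all genes, which lay between 13 and 4954 per time point in the first of these comparisons and between 402 and 7221 with the block, and in the second between 233 and 4620 and between 2040 and 6578. The replicate block also gave 10 for the genotype comparison in place of 9 and 12 for winners and losers in place of 10, and added 2 not named above, Bcl2l1 in the difference between genotypes at the step to 120 h (0.21, adjusted p = 0.0215, against 0.0589) and Mcl1 between WT clones at 72 h (−0.22, adjusted p = 0.00466, against 0.0533), and it ended no call. Without a replicate the WT change of Bcl2l1 from 0 to 144 h ranged from −0.18 to −0.065 (adjusted p up to 0.196, without replicate 1), its difference between genotypes from −0.21 to 0.0032, and that of Bcl2l2 from −0.28 to −0.12. With the longest transcript in place of merged exons, the share of Mcl1 was 87.9% in WT–emiRFP mES cells, 82.9% in WT–emiRFP and 73.1% in p53KO–emiRFP at 144 h, and that of Bcl2 0.0435% and 2.87% in the first and the last of these. The cause of these shifts was not tested.

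Among the changes from 0 to 144 h that did not pass, Bcl2l1 between genotypes changed sign without replicate 2, from −0.0798 to 0.0032. Of the values within time points or between steps that did not pass, 31 alternatives changed sign, all of them values near 0. With TMM these were Bcl2l1 by genotype at 48 h (−0.0109), Bcl2l2 between winners and losers at 96 h (0.00644), in p53KO–emiRFP to 120 h (−0.0126) and in the difference between genotypes at the steps to 72 h (0.000132) and 120 h (−0.0289). Without a replicate the ranges were −0.16 to 0.0601 for Bcl2 at 120 h, −0.0216 to 0.0562 and −0.0828 to 0.00383 for Bcl2l1 at 72 and 120 h, and −0.0846 to 0.0145, −0.0341 to 0.0452, −0.075 to 0.00239 and −0.0485 to 0.0126 for Bcl2l2 at 72, 96, 120 and 144 h in WT–mCherry beside p53KO against beside WT. By genotype they were −0.0743 to 0.18 for Bcl2 at 0 h, −0.0225 to 0.0546 for Bcl2l1 at 48 h, and −0.0351 to 0.0145 and −0.0788 to 0.0103 for Bcl2l2 at 48 and 72 h. Between winners and losers Bcl2l2 ranged from −0.0288 to 0.0151 at 96 h and −0.0325 to 0.0122 at 120 h. In WT steps to 120 h they were −0.00537 to 0.14 for Bcl2 and −0.00591 to 0.045 for Bcl2l2, in p53KO–emiRFP −0.0201 to 0.0256 and −0.18 to 0.00224 for Bcl2l2 to 120 and 144 h, and between the genotypes' steps −0.0833 to 0.0391 and −0.0156 to 0.0334 for Bcl2l2 to 72 and 120 h and −0.024 to 0.0574 for Mcl1 to 144 h.

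Depth limits Bcl2 in mES cells, with 11 reads in the lowest library. Each genotype and reporter is 1 clone, sorting purity was not measured afterwards, and 3 replicates leave small differences undetected.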
